A study of Homo sapiens with 6 samples.

Results

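Matrix proteases and their inhibitors were examined in clones of the human cell line MDA-MB-231, which was established from a triple-negative breast cancer and has mesenchymal features. The module was defined as 47 named genes, found by their gene symbol in the array's probe table. Of these, 46 had a row, of 18417 genes in all that have a row of their own, and the other member, ADAMTS15, was not analysed here. By role, 32 of the 46 encode proteases and 12 encode protease inhibitors, and the others are PLAUR, the urokinase receptor, and HPSE, the heparan sulfate-cleaving enzyme heparanase. Transcripts were measured on 6 Affymetrix Human Gene 1.0 ST arrays. Every culture carried a short hairpin RNA (shRNA): a control shRNA, or shRNA 162 or shRNA 159 against TIP-1, a small PDZ-domain protein whose gene is TAX1BP3. There were 2 independent clones with each of the 3 shRNAs and 1 array per clone, so the clone is the replicate (n = 2 per group) and p-values measure the spread between clones. Cells of every clone, kept in RPMI with serum, were trypsinised and reseeded the day before RNA was taken. Each group being 2 clones, an effect of its shRNA and a difference its clones share for another reason cannot be told apart. The knockdown comparison asks what loss of TIP-1 changes in these cells, and the hairpins separately ask whether either one gives the same change.

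Breakdown of the extracellular matrix rests on several enzyme families. Matrix metalloproteinases (MMPs) and the related ADAM and ADAMTS enzymes are zinc proteases that cut collagens, proteoglycans and the outer parts of membrane proteins, and they are held in check by the tissue inhibitors of metalloproteinases (TIMPs) and by the membrane-anchored RECK. The plasminogen activators uPA (PLAU) and tPA (PLAT) are serine proteases that turn plasminogen into plasmin, with uPA acting at the cell surface on its receptor PLAUR, and serpins such as SERPINE2 block them. Cathepsins work mainly in lysosomes, are secreted by many tumour cells, and in the case of the cysteine cathepsins are blocked by cystatins. MDA-MB-231 cells are widely used as an invasive line in which these systems are studied.

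Values are log2 signals per probe set as normalized by the authors, so a difference of 1 is a doubling. Signals of different rows were set against each array's median and lower quartile, and a gene's brighter row was chosen. Beyond this they were not ranked against each other. Array medians lay between 7.37 and 7.44, and clones of a group correlated at 0.996 to 0.997 across rows, which are not independent replicates. TAX1BP3 stood at 11.65 and 11.56 in the control clones, 9.85 and 10.01 with shRNA 162 and 10.40 in each clone with shRNA 159. The lowest control clone thus exceeded every shRNA clone (exact two-sided permutation test p = 0.0667, the smallest that 15 splits allow), on a row shared with the readthrough transcript P2RX5-TAX1BP3. Of 6 genes typical of this line (VIM, CD44, EGFR, SPARC, AXL and CAV1), 5 lay above the median of every array, SPARC being the other. The luminal or epithelial genes CDH1, ESR1, PGR and ERBB3 lay below the lower quartile of every array (6.68 to 6.81), while GATA3 and FOXA1 did not. So did 3 of 4 leukocyte markers (CD68 was the other), 2 of 3 endothelial and 2 of 4 fibroblast markers, and by limma 0 of all 23 markers passed in any comparison, with 1 or 2 at an unadjusted p under 0.05 in each. A row passed at a limma adjusted p under 0.05, with Benjamini-Hochberg adjustment over all 21214 rows tested.

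The largest mean change in the module was that of ADAMTS1, a secreted enzyme that cleaves the proteoglycans aggrecan and versican, which was lower with each hairpin. TIMP3, the matrix-bound inhibitor of MMPs, ADAMs and ADAMTS enzymes, and SERPINE2, protease nexin-1, an inhibitor of thrombin and plasminogen activators, were also lower with each hairpin. ADAMTS6, another enzyme of the ADAMTS family, and PLAU were higher than in control when the hairpins were weighted equally. For this comparison, TIP-1 shRNA minus control, 4 members fell (ADAMTS1, TIMP3, SERPINE2 and CTSZ) and 2 rose (ADAMTS6 and PLAU). That is 8.7% of the 46 lower and 4.35% higher, beside 1.61% and 3.01% of all 21214 rows tested, and 4.62% of these rows in either direction. The median change of the members was -0.078 on the log2 scale, beside 0.00072 over all rows, and 34 of the 46 members were below 0. The directions of all called rows moved with scaling, from 639 higher and 341 lower to 565 and 459 (2.66% and 2.16%) after quantile normalization, where 1 member was higher and 4 were lower, PLAU not passing. With shRNA 162 minus control 10 members fell and 2 rose, 21.7% and 4.35%, beside 3.64% lower and 5.88% higher among all rows (9.52% in either direction). After quantile normalization the split over all rows was 1078 higher and 1074 lower (5.08% and 5.06%), from 1247 and 772, and that of the members 2 and 12. With shRNA 159 minus control 4 members fell and 2 rose, 8.7% and 4.35%, beside 0.839% lower and 1.69% higher among all rows (2.53% in either direction). Both of these comparisons use the same control clones, so they are not independent of each other.

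By role, the calls lay among both proteases and inhibitors. For TIP-1 shRNA minus control, 2 of 32 proteases rose and 2 fell, with a median change of -0.077, and 2 of 12 inhibitors fell and 0 rose by limma, with a median of -0.087 (5 inhibitors at an unadjusted p under 0.05, 1 of them higher). With shRNA 162, 6 proteases fell and 2 rose (median -0.078) and 3 inhibitors fell and 0 rose (median -0.18; 2 higher and 5 lower at an unadjusted p under 0.05). With shRNA 159, 2 proteases fell and 2 rose (median -0.088) and 2 inhibitors fell and 0 rose (median -0.0045, with 1 higher and 3 lower at an unadjusted p under 0.05). Among all 21214 rows, 1.61% fell and 3.01% rose for TIP-1 shRNA minus control. With shRNA 162 these shares were 3.64% and 5.88%, and with shRNA 159 0.839% and 1.69%. At an unadjusted limma p under 0.05, 1654 rows were lower and 2538 higher for TIP-1 shRNA minus control. There were 1993 and 3329 with shRNA 162, and 1455 and 1540 with shRNA 159. ADAMTS1 among the proteases and TIMP3 and SERPINE2 among the inhibitors fell with each hairpin. As counts without a test, the 4 shRNA clones did not overlap the controls and were lower for 12 members (26.1%, beside 8.9% of all rows) and higher for 3 members, ADAMTS6, PLAU and SPINT2 (6.52%, beside 13.0% of all rows). The plot of each member's change by family shows these differences gene by gene.

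**Figure D1:**
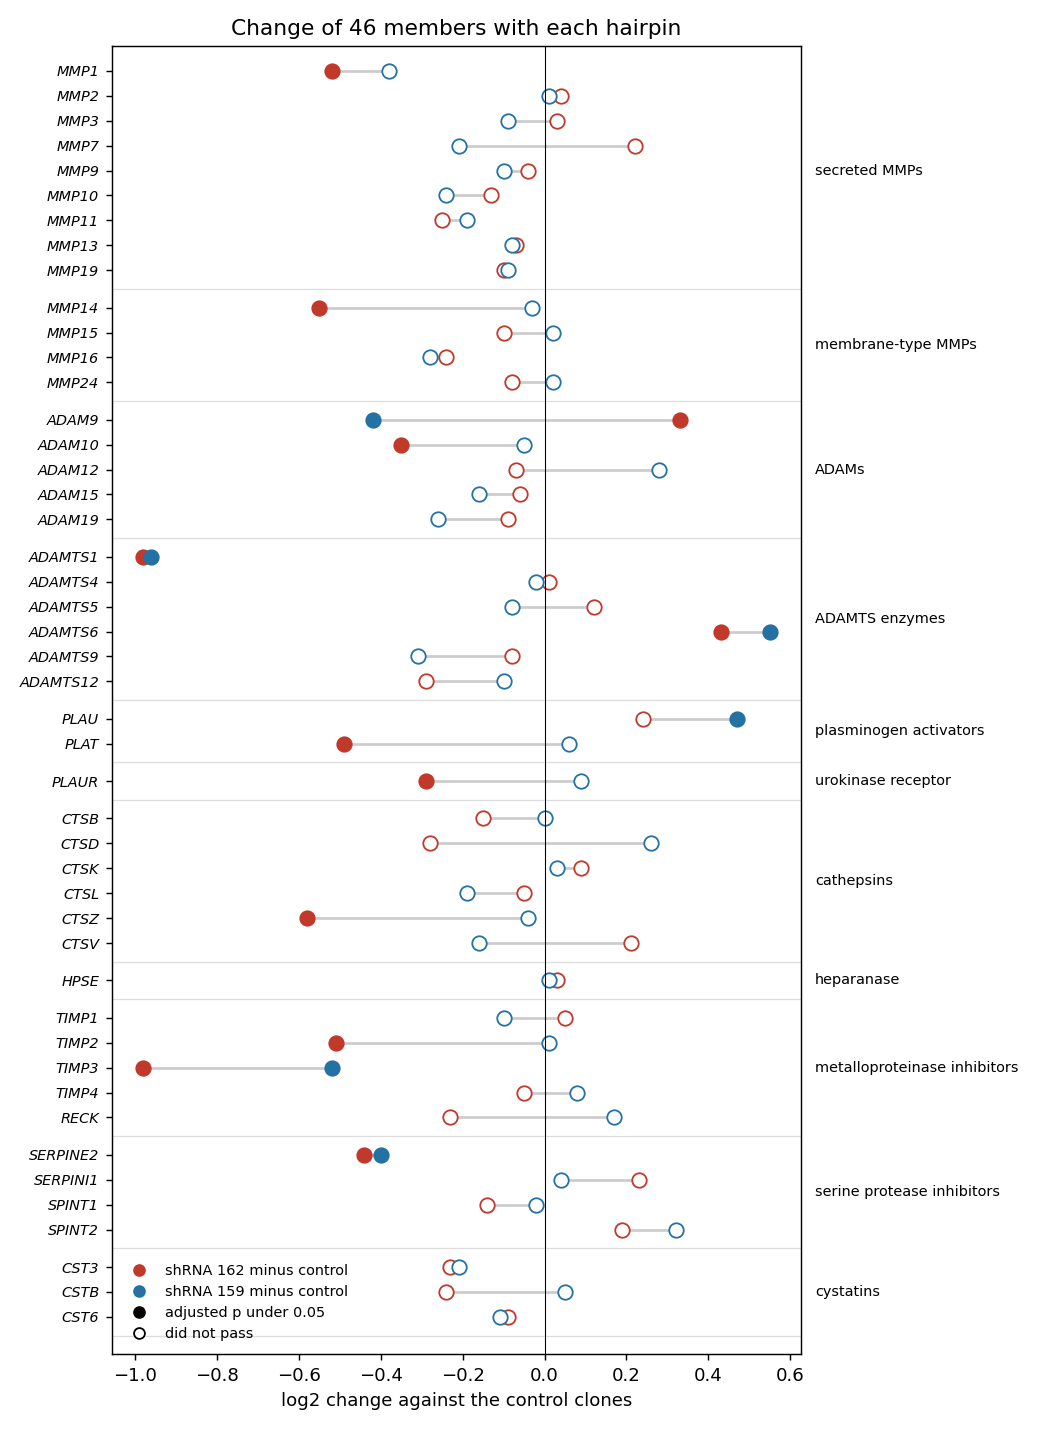
Log2 change of the 46 members against the control clones with shRNA 162 (red) and shRNA 159 (blue), grouped by family; filled points had a limma adjusted p under 0.05 and a grey line joins the values of a gene. ADAMTS1 lies at -0.98 and -0.96, TIMP3 at -0.98 and -0.52, and ADAM9 on opposite sides of 0 at 0.33 and -0.42.

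ADAMTS1 read 9.96 and 10.04 in the control clones, 9.00 and 9.03 with shRNA 162, and 9.14 and 8.94 with shRNA 159. The 4 shRNA clones overlapped with one another and lay far below both controls. It fell by 0.98 (SE 0.089, limma adjusted p = 0.0007) with shRNA 162 and by 0.96 (SE 0.089, limma adjusted p = 0.0013) with shRNA 159, that is, to 50.7% and 51.5% of the control signal. The hairpins differed by 0.02, with an unadjusted 95% interval from -0.18 to 0.23. Its call held without any clone in turn, with the 4 shRNA clones as 1 group and with the hairpin as a random block, and in these latter fits it was the only member to pass (1 of 46, 2.17%, beside 0.335% and 0.127% of all rows).

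**Figure D2:**
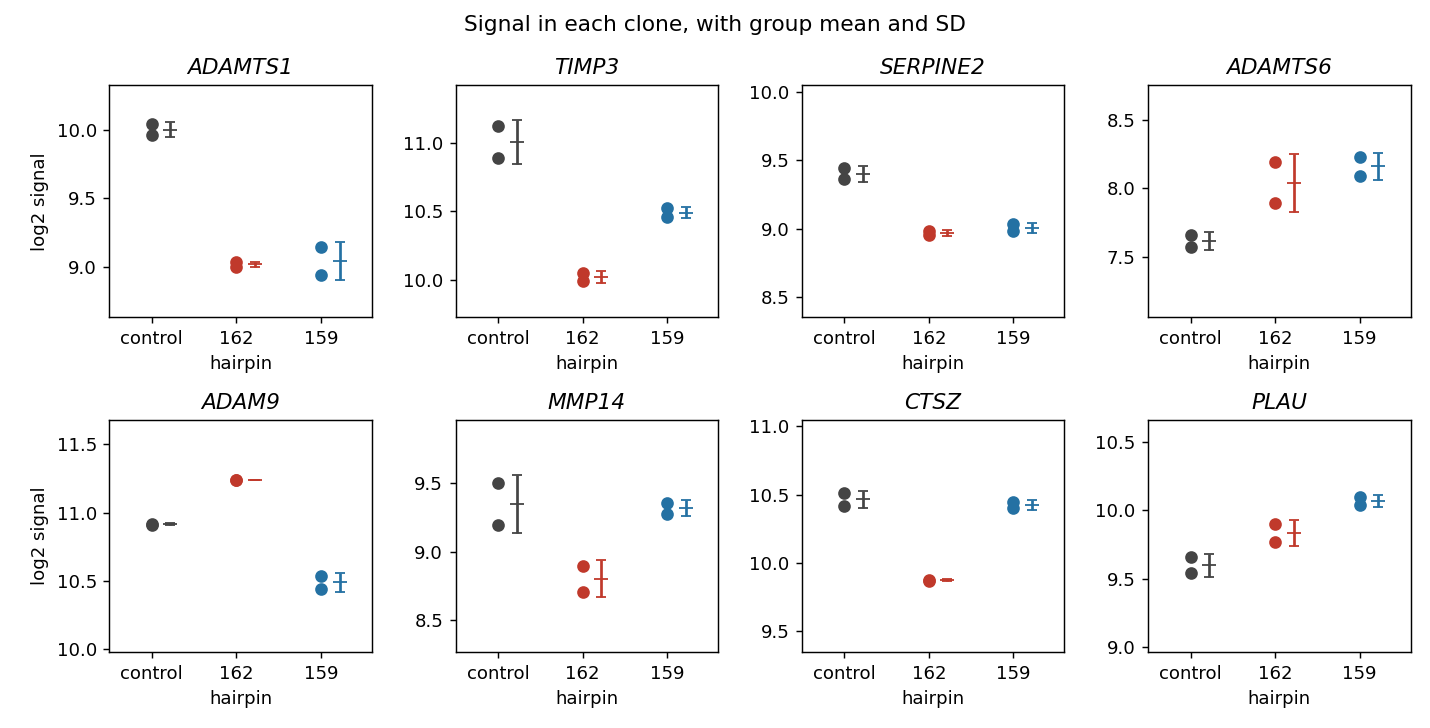
Log2 signal of 8 members in each clone (points) with the group mean and SD (bars, n = 2) for control, shRNA 162 and shRNA 159; each axis spans the same number of log2 units. ADAMTS1, TIMP3 and SERPINE2 are lower in all 4 shRNA clones, whereas MMP14 and CTSZ are low with shRNA 162 alone and ADAM9 moves in opposite directions.

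ADAMTS6 went the other way. Its signal was 7.57 and 7.66 in control, 7.89 and 8.19 with shRNA 162 and 8.23 and 8.09 with shRNA 159, with all 4 shRNA clones above both controls. It rose by 0.43 with shRNA 162 (SE 0.11, limma adjusted p = 0.046) and by 0.55 with shRNA 159 (SE 0.11, limma adjusted p = 0.042). Without either control clone, or without shRNA 162 clone 2, the call with shRNA 162 was lost (limma adjusted p = 0.14 to 0.25; the change was 0.28 without shRNA 162 clone 2), and without either control or either shRNA 159 clone that with shRNA 159 was lost (0.064 to 0.2). The other 4 measured enzymes of this family, ADAMTS4, ADAMTS5, ADAMTS9 and ADAMTS12, did not pass in any comparison. Of these, ADAMTS9 changed by -0.31 with shRNA 159 (limma adjusted p = 0.089) and ADAMTS12 by -0.29 with shRNA 162 (limma adjusted p = 0.085). The ADAMTS5 row had a signal under the lower quartile on all arrays and was not shown to be above background.

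TIMP3 stood at 10.89 and 11.12 in control, 10.05 and 9.99 with shRNA 162, and 10.46 and 10.52 with shRNA 159. The 3 groups did not overlap, and the shRNA 159 clones lay between the others. TIMP3 fell by 0.98 with shRNA 162 (SE 0.095, limma adjusted p = 0.00088) and by 0.52 with shRNA 159 (SE 0.095, limma adjusted p = 0.029), and the hairpins differed by 0.46 (limma adjusted p = 0.022), a call lost without any one of the 4 shRNA clones (0.053 to 0.12). A second, dimmer TIMP3 row gave the same order, with 8.56 and 8.58 in control, 7.67 and 7.62 with shRNA 162, and 8.06 and 8.05 with shRNA 159. This second row changed by -0.92 with shRNA 162 (limma adjusted p = 0.00043) and by -0.52 with shRNA 159 (limma adjusted p = 0.0089). With shRNA 162 the call of the brighter row held without any clone in turn, but with shRNA 159 it was lost without control clone 2 or without any one of the 4 shRNA clones (limma adjusted p = 0.054 to 0.2). For TIP-1 shRNA minus control (-0.75, SE 0.082, limma adjusted p = 0.0025) it passed without any clone, but neither with the 4 shRNA clones as 1 group nor with the hairpin as a random block, where the adjusted p reached 0.24.

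SERPINE2 read 9.44 and 9.36 in the control clones, 8.98 and 8.95 with shRNA 162, and 9.03 and 8.98 with shRNA 159. The 4 shRNA clones lay within 0.1 of one another and below both controls. SERPINE2 fell by 0.44 with shRNA 162 (SE 0.075, limma adjusted p = 0.011) and by 0.40 with shRNA 159 (SE 0.075, limma adjusted p = 0.034), and the hairpins differed by 0.04, with an interval from -0.13 to 0.21. These calls were lost without either control clone or either shRNA 162 clone for shRNA 162 (limma adjusted p = 0.053 to 0.087) and without any one of the 6 clones for shRNA 159 (0.073 to 0.19).

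Promoter sequences are shown for genes that moved the same way with each hairpin, TIMP3, SERPINE2 and ADAMTS6, and for the urokinase pair PLAU and PLAUR described further on. They are RefSeq windows (GRCh38.p14) from 250 bases before to 50 after a transcription start, written 5′ to 3′ on the gene's strand. ADAMTS1 was not in the promoter table. Capitals mark matches to the AP-1 site TGAGTCA or to the PEA3 core AGGAAG, a site of ETS factors, on either strand, and matches of the 2 motifs can share at most 1 base. The windows are, in order, TIMP3 at chr22:32801455-32801754 on the plus strand, the 2 SERPINE2 starts at chr2:224038591-224038890 and chr2:224031429-224031728 on the minus strand, ADAMTS6 at chr5:65481871-65482170 on the minus strand, the 2 PLAU starts at chr10:73910360-73910659 and chr10:73910882-73911181 on the plus strand, and PLAUR at chr19:43670120-43670419 on the minus strand.
TIMP3: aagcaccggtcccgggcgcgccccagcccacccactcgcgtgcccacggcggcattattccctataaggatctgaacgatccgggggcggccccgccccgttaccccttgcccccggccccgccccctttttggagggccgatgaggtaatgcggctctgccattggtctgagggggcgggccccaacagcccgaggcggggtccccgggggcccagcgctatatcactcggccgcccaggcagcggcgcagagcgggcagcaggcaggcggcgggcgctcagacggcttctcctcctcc
SERPINE2, upstream start: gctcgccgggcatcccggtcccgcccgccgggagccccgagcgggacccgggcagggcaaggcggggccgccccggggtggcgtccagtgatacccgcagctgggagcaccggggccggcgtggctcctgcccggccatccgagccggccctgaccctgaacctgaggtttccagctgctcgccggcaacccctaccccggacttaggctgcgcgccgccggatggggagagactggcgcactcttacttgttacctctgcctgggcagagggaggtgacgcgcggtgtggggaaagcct
SERPINE2, downstream start: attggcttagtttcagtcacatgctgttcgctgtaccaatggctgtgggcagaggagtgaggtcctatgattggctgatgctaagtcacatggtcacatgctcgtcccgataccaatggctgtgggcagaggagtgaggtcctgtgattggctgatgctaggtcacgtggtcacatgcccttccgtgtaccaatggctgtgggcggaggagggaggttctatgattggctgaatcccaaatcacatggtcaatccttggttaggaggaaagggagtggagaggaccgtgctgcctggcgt
ADAMTS6: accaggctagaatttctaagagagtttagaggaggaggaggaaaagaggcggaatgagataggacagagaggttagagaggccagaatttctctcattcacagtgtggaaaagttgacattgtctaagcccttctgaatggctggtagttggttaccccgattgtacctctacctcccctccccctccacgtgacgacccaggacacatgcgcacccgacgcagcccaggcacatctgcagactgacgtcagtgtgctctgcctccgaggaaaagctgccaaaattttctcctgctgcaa
PLAU, upstream start: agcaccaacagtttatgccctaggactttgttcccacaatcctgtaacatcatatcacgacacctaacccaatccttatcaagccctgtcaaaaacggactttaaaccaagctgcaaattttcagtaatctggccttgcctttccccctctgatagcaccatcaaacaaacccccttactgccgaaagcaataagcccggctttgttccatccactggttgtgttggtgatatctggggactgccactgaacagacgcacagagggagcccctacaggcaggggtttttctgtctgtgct
PLAU, downstream start: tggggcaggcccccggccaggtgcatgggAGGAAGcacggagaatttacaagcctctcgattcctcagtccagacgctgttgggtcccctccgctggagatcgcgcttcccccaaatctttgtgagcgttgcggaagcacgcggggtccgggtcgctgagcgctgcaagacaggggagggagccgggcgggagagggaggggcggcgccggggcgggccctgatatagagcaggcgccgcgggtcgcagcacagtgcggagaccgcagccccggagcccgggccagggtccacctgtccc
PLAUR: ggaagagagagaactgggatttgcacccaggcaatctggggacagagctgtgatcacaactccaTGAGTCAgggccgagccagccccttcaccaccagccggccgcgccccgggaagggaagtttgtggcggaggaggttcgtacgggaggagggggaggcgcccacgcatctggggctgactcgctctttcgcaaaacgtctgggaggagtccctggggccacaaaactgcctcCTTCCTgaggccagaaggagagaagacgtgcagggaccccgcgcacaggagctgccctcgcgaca
Neither motif was found in the TIMP3, SERPINE2, ADAMTS6 and upstream PLAU windows. The downstream PLAU window held a PEA3 core from base -221 and the PLAUR window held TGAGTCA from base -186 and the PEA3 core on the other strand from base -15. The promoter table matched 27 members by symbol, with 32 windows. TGAGTCA or its reverse complement was in 3 of them (PLAUR, MMP7 and 1 of the SPINT1 windows), 9.38% beside 4.95% of all 35116 windows. The PEA3 core was in 13, 40.6% beside 33.6%. Windows of a gene can overlap and hold the same site, as for HPSE. By gene, the PEA3 core was in 11 of 27 members, beside 10408 of all 27305 genes, and TGAGTCA in 3, beside 1651. The TIMP3 window was 72.7% G and C with 31 CpG sites, beside medians of 58.7% and 14 over all windows. This was not particular to TIMP3: the upstream SERPINE2 window had 73.7% and 31, and the CTSZ window 81.0% and 37. The ADAMTS6 window had 52.0% and 9. A motif match is a description of letters and was not tested as a binding site.

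Among secreted MMPs, MMP1, the interstitial collagenase, was the single one of 9 to pass in any comparison. MMP1 read 7.08 and 7.45 in control, 6.77 and 6.71 with shRNA 162, and 7.00 and 6.77 with shRNA 159, so that all 4 shRNA clones lay below both controls while the control clones differed more than those of either hairpin. It fell by 0.52 with shRNA 162 (SE 0.13, limma adjusted p = 0.042) and changed by -0.38 with shRNA 159 (SE 0.13, limma adjusted p = 0.225). The values 6.77 and 6.71 with shRNA 162, and 6.77 with shRNA 159, lay in the range of the arrays' lower quartiles (6.68 to 6.81). Signals that low were not shown to be above background, so the size of the MMP1 change is uncertain. The hairpins were not distinguished, with a difference of 0.15 and an interval from -0.15 to 0.44. The call was lost without control clone 2 or either shRNA 162 clone (limma adjusted p = 0.12 to 0.2), and the change was -0.34 without control clone 2 and -0.71 without control clone 1. By limma 0 of the 9 passed for TIP-1 shRNA minus control or for shRNA 159 minus control, and 1 of 9 was at an unadjusted p under 0.05 in each, MMP1. The gelatinases MMP2 (6.98 ± 0.066 in control, mean ± SD, n = 2) and MMP9 (7.15 ± 0.049) changed by 0.02 and -0.07 for TIP-1 shRNA minus control. Their lowest values, 6.81 with shRNA 162 for MMP2 and 6.97 with shRNA 159 for MMP9, lay near the lower quartiles. These signals too were not shown to be above background. MMP3, MMP7, MMP10 and MMP13 had signals under the lower quartile on all arrays, and their differences are ones of array signal near its floor. MMP11 and MMP19 did not pass either, at -0.22 and -0.10, although all 4 shRNA clones of MMP19 lay below its controls of 7.14 and 7.17.

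The membrane-type MMPs sit on the cell surface, where MMP14 activates the MMP2 proenzyme and cuts collagen directly. MMP14 differed with the hairpin: it read 9.20 and 9.50 in control, 8.90 and 8.71 with shRNA 162, and 9.36 and 9.28 with shRNA 159. The shRNA 162 clones lay below all others, and the shRNA 159 clones lay between the control clones. It fell by 0.55 with shRNA 162 (SE 0.12, limma adjusted p = 0.024), changed by -0.03 with shRNA 159 (limma adjusted p = 0.933), and was 1.43-fold higher with shRNA 159 than with shRNA 162 (limma adjusted p = 0.031). Without control clone 2 or either shRNA 162 clone the fall was lost (limma adjusted p = 0.051 to 0.15), and without any one of the 4 shRNA clones the difference between hairpins was lost (0.065 to 0.18). MMP15, MMP16 and MMP24 did not pass in any comparison. MMP16 read 7.70 and 7.68 in control, 7.33 and 7.58 with shRNA 162, and 7.48 and 7.34 with shRNA 159. For TIP-1 shRNA minus control it had the largest change of the members that passed nowhere, -0.26 (SE 0.086, limma adjusted p = 0.145), with 4 of 4 shRNA clones below the controls, while its second row changed by -0.18 with 2 of 4 below.

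Among the ADAMs, which shed growth factors and receptors from the cell surface, ADAM9 moved in opposite directions. Its signal was 10.92 and 10.91 in control, 11.24 in each clone with shRNA 162, and 10.54 and 10.44 with shRNA 159. The 3 groups were fully separated. ADAM9 rose by 0.33 with shRNA 162 (SE 0.075, limma adjusted p = 0.031), fell by 0.42 with shRNA 159 (SE 0.075, limma adjusted p = 0.027), and was 1.68-fold lower with shRNA 159 than with shRNA 162 (limma adjusted p = 0.0012). The difference between hairpins held without any clone in turn, whereas the rise was lost without either control or either shRNA 162 clone (limma adjusted p = 0.14 to 0.15) and the fall without any one of the 6 clones (0.059 to 0.17). Because the signs cancel, the mean over hairpins was -0.05.

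ADAM9 lies on chromosome 8, and neighbouring genes there moved with shRNA 162. Of the 10 nearest measured genes on each side, 9 of 20 rose with shRNA 162 and 0 fell, with a median change of 0.28. Also, 10 of 20 were lower with shRNA 159 than with shRNA 162. Among all rows, 5.88% rose and 3.64% fell with shRNA 162, and 4.64% were lower with shRNA 159 than with shRNA 162. FGFR1 changed by 0.34, NSD3 by 0.91 and TM2D2, the next gene, by 0.46 with shRNA 162. With shRNA 159, 0 of these 20 passed by limma and their median change was -0.041, against -0.42 for ADAM9. The neighbours of MMP14 on chromosome 14 had a median of -0.20 with shRNA 162, and 3 of 20 fell and 0 rose, the adjacent LRP10 at -0.75 among them. Between hairpins, 7 of these 20 were higher with shRNA 159 than with shRNA 162 and 0 lower, beside 4.02% of all rows higher. The neighbours of CTSZ on chromosome 20 had a median of -0.20 with shRNA 162, with 4 of 20 lower and 0 higher. What part the neighbourhood has in these results was not tested. Around ADAMTS1, TIMP3 and SERPINE2 the medians were 0.088, 0.087 and 0.018 with shRNA 162, beside 0.021 over all rows. With shRNA 159 these medians were 0.037, -0.01 and -0.0076, beside -0.014 over all rows. The plot of neighbours shows the changes gene by gene around ADAM9, MMP14, CTSZ and TIMP3.

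**Figure D3:**
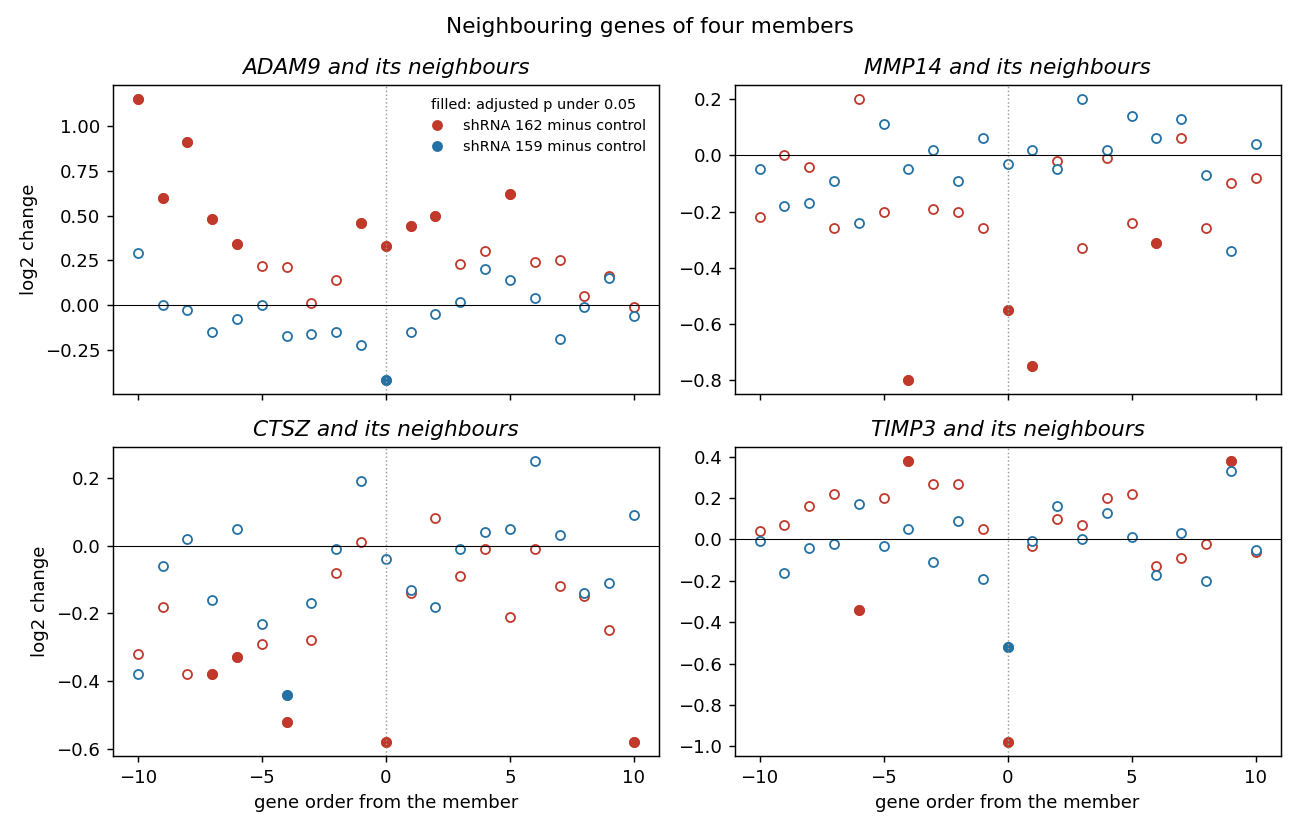
Log2 change with shRNA 162 (red) and shRNA 159 (blue) minus control for ADAM9, MMP14, CTSZ and TIMP3, each at position 0, and the 10 nearest measured genes on each side in RefSeq order; filled points had a limma adjusted p under 0.05. Around ADAM9, 9 of 20 neighbours rose with shRNA 162, beside 5.88% of all rows, with a median of 0.28. Around TIMP3 the median was 0.087, and TIMP3 itself lay at -0.98.

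ADAM10, the main sheddase of Notch, read 11.32 and 11.28 in control, 10.99 and 10.92 with shRNA 162, and 11.23 and 11.27 with shRNA 159. It fell by 0.35 with shRNA 162 (SE 0.075, limma adjusted p = 0.026) and changed by -0.05 with shRNA 159, and the hairpins differed by 0.30 (limma adjusted p = 0.047). The fall was lost without either control or either shRNA 162 clone (limma adjusted p = 0.095 to 0.17), and the difference without any one of the 6 clones (0.081 to 0.25) and with the replicate number as a block. ADAM12 passed between the hairpins alone: it read 7.83 and 7.76 in control, 7.67 and 7.78 with shRNA 162, and 8.11 and 8.03 with shRNA 159, 0.35 higher than with shRNA 162 (SE 0.08, limma adjusted p = 0.034). That call was lost without any one of the 6 clones (limma adjusted p = 0.059 to 0.2). ADAM15 and ADAM19 did not pass, at -0.11 and -0.17 for TIP-1 shRNA minus control, with all 4 shRNA clones below both controls in each.

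TIMP2, which inhibits MMPs and also takes part in MMP2 activation by MMP14, read 10.39 and 10.40 in control, 9.99 and 9.78 with shRNA 162, and 10.44 and 10.36 with shRNA 159. It fell by 0.51 with shRNA 162 (SE 0.089, limma adjusted p = 0.012) and changed by 0.01 with shRNA 159, and the hairpins differed by 0.51 (limma adjusted p = 0.012). MMP14 and TIMP2 were thus both lower in the shRNA 162 clones, by 0.55 and 0.51. MMP2 itself was at 7.02 ± 0.29 (n = 2) beside 6.98 in control, signals not shown to be above background. Without either control clone or without shRNA 162 clone 2 the fall of TIMP2 was lost (limma adjusted p = 0.076 to 0.09), and without shRNA 162 clone 2 so was the difference between the hairpins (0.085). TIMP1 (12.79 ± 0.051 in control, n = 2), TIMP4 and RECK passed in no comparison. RECK was at 7.75 and 7.74 in control, 7.46 and 7.58 with shRNA 162, and 8.08 and 7.75 with shRNA 159, and its difference between hairpins of 0.40 had a limma adjusted p = 0.067.

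In the plasminogen system PLAU rose with shRNA 159, and PLAT and PLAUR fell with shRNA 162. PLAU read 9.54 and 9.66 in control, 9.90 and 9.77 with shRNA 162, and 10.04 and 10.10 with shRNA 159, with all 4 shRNA clones above both controls and those of shRNA 159 highest. It rose by 0.47 with shRNA 159 (SE 0.085, limma adjusted p = 0.029) and changed by 0.24 with shRNA 162 (SE 0.085, limma adjusted p = 0.129). The difference between hairpins, 0.23, did not pass (limma adjusted p = 0.137). The rise was lost after quantile normalization (limma adjusted p = 0.055) and without either control or either shRNA 159 clone (0.084 to 0.17), and for TIP-1 shRNA minus control (0.35, limma adjusted p = 0.037) without any one of the 6 clones (0.055 to 0.24).

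PLAT read 8.33 and 8.15 in control, 7.73 and 7.76 with shRNA 162, and 8.36 and 8.25 with shRNA 159. The shRNA 162 clones were the low ones. PLAT fell by 0.49 with shRNA 162 (SE 0.089, limma adjusted p = 0.013), and with shRNA 159 it was 1.47-fold higher than with shRNA 162 (limma adjusted p = 0.0085). PLAUR read 11.48 and 11.45 in control, 11.16 and 11.19 with shRNA 162, and 11.54 and 11.56 with shRNA 159, with no overlap of the 3 groups. It fell by 0.29 with shRNA 162 (SE 0.072, limma adjusted p = 0.045), changed by 0.09 with shRNA 159 (limma adjusted p = 0.643), and differed by 0.37 between the hairpins (limma adjusted p = 0.018). Without control clone 1 or either shRNA 162 clone the fall of PLAT was lost (limma adjusted p = 0.074 to 0.096), and without either control or either shRNA 162 clone that of PLAUR (0.16 to 0.21). PLAUR also missed the threshold with the replicate number as a block. Between the hairpins, PLAT lost the call without either shRNA 162 clone (0.05 to 0.06 after rounding) and PLAUR without either shRNA 162 clone or shRNA 159 clone 2 (0.058 to 0.12).

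**Figure D4:**
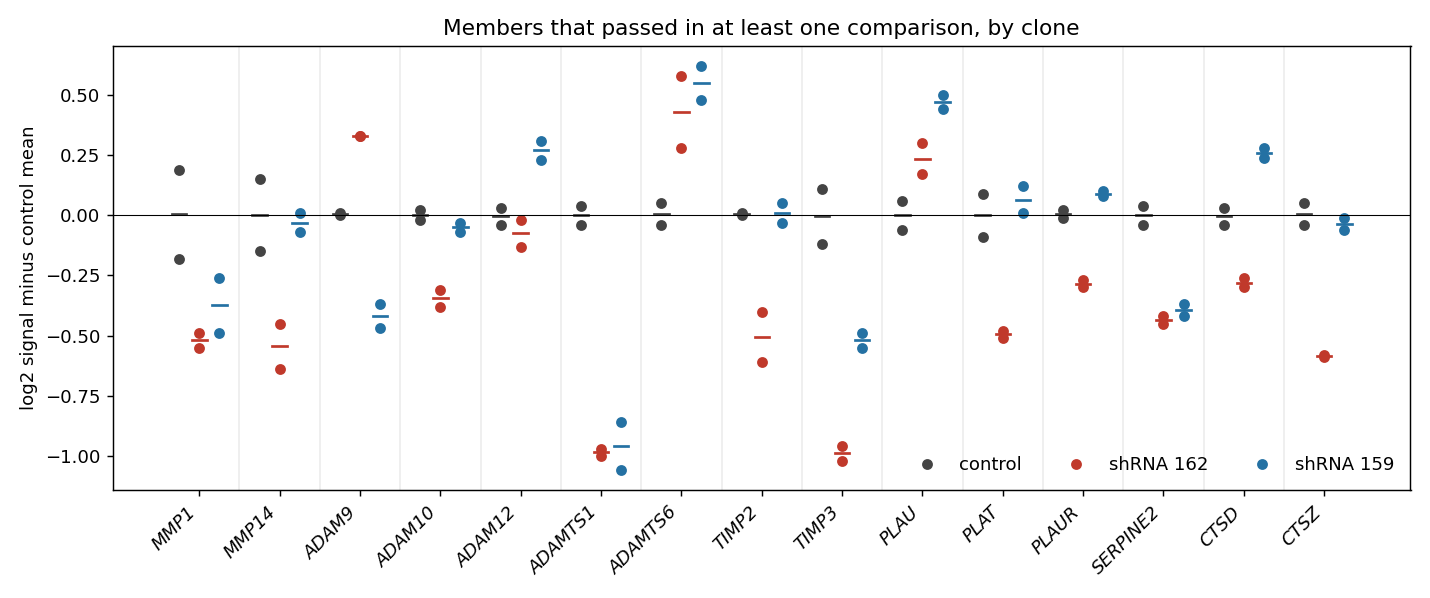
Log2 signal of each clone minus the mean of the control clones for the 15 members that passed in at least 1 of the 4 comparisons; points are clones and short lines group means (n = 2). ADAMTS1, TIMP3 and SERPINE2 lie below 0 with each hairpin, while MMP14, ADAM10, TIMP2, PLAT, PLAUR and CTSZ are lower in the shRNA 162 clones than in the shRNA 159 clones.

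The other serine protease inhibitors passed in no comparison. SPINT2, a membrane-bound Kunitz inhibitor of hepsin and matriptase, was the nearest, at 9.12 and 9.18 in control, 9.35 and 9.34 with shRNA 162, and 9.52 and 9.41 with shRNA 159, a change of 0.25 (SE 0.068, limma adjusted p = 0.08) with all 4 shRNA clones above both controls. SPINT1 changed by -0.08. SERPINI1, neuroserpin, lay below the lower quartile of every array.

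Among 6 cathepsins, CTSZ stood out with shRNA 162. CTSZ, a lysosomal carboxypeptidase, read 10.42 and 10.51 in control, 9.88 and 9.87 with shRNA 162, and 10.40 and 10.45 with shRNA 159. It fell by 0.58 with shRNA 162 (SE 0.076, limma adjusted p = 0.0034), changed by -0.04 with shRNA 159, and was 1.46-fold higher with shRNA 159 than with shRNA 162 (limma adjusted p = 0.0047). These calls of CTSZ held without any clone in turn, whereas its mean change over hairpins, -0.31, lost the call without either control, either shRNA 162 clone or shRNA 159 clone 1 (limma adjusted p = 0.07 to 0.28).

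CTSD, the aspartic cathepsin, lay on either side of control: 11.02 and 11.09 in control, 10.80 and 10.76 with shRNA 162, and 11.30 and 11.34 with shRNA 159. Neither hairpin passed against control (-0.28, limma adjusted p = 0.055, and 0.26, limma adjusted p = 0.141), but the hairpins differed by 0.54 (SE 0.075, limma adjusted p = 0.0048), and this held without any clone in turn. CTSB (9.80 ± 0.069 in control, n = 2), CTSK, CTSL and CTSV passed in no comparison, with changes from -0.12 to 0.06 for TIP-1 shRNA minus control. The cystatins CST3, CSTB and CST6 did not pass either. CST3, the secreted inhibitor cystatin C, read 12.05 and 12.00 in control, 11.73 and 11.87 with shRNA 162, and 11.77 and 11.86 with shRNA 159, a change of -0.22 (limma adjusted p = 0.138). HPSE read 8.01 to 8.10 in control and 7.97 to 8.14 in the shRNA clones, which overlapped, and changed by 0.02.

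The direct comparison of hairpins asks which members differ between clones that share the target. With shRNA 159 minus shRNA 162, 9 members were higher (MMP14, ADAM10, ADAM12, TIMP2, TIMP3, PLAT, PLAUR, CTSD and CTSZ) and ADAM9 was lower, 19.6% and 2.17% of the 46, beside 4.02% and 4.64% of all rows (8.65% in either direction). The members' median was 0.032, beside -0.039 over all rows. The residual TAX1BP3 signal also differed between hairpins, by 0.47 (limma adjusted p = 0.013), being lower with shRNA 162, and what part this has in the members' differences was not tested. Of the ADAMTS family, 0 of 6 differed between hairpins by limma (1 of 6 at an unadjusted p under 0.05, lower with shRNA 159).

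Another 72 genes of matrix proteolysis that were not members were listed by textbook role, and 67 had a row. Of these, 1 rose and 1 fell for TIP-1 shRNA minus control, 0 rose and 2 fell with shRNA 162, 1 rose and 1 fell with shRNA 159, and 2 were higher and 1 lower with shRNA 159 than with shRNA 162, which is 2.99%, 2.99%, 2.99% and 4.48% of the list, beside 4.62%, 9.52%, 2.53% and 8.65% of all rows. CTSC, the lysosomal dipeptidyl peptidase that activates granule serine proteases, was the one that fell with each hairpin: it read 12.12 and 12.02 in control, 11.53 in each clone with shRNA 162, and 11.20 and 11.14 with shRNA 159. Its changes were -0.54 (limma adjusted p = 0.0051) and -0.90 (limma adjusted p = 0.00095), and its signal fell by a further 0.36 from shRNA 162 to shRNA 159 (limma adjusted p = 0.026). ADAM17, the sheddase of TNF and of EGFR ligands, read 8.55 in each control clone, 8.60 and 8.59 with shRNA 162, and 9.12 and 9.05 with shRNA 159, a rise of 0.53 with shRNA 159 (limma adjusted p = 0.0083). The secreted serine protease HTRA1 fell by 0.33 with shRNA 162 (limma adjusted p = 0.041), and LGMN, the asparaginyl endopeptidase legumain, was 0.32 higher with shRNA 159 than with shRNA 162 (limma adjusted p = 0.032).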

How the data were processed

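Each clone's RNA was measured on 1 Affymetrix Human Gene 1.0 ST array. The authors made the deposited log2 signals per probe set in Affymetrix's Exon Array Computational Tool, per the series' design text. Its settings and the log base were not given, and log2 was inferred from the range, 2.29 to 14.65. Of 33297 rows, 21214 had a gene symbol in the platform's table (19460 one, 1754 several) and were tested without further scaling. Members come from rows with 1 symbol; a gene with several rows (MMP16 and TIMP3) enters by the brighter.

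One model with 3 groups was fitted with limma 3.58.1 in R 4.3.3 (lmFit, eBayes; 3 residual and 5.31 prior degrees of freedom; two-sided). Intervals are 95% and not adjusted. Arrays give no count depth; their number limits the precision. Genes were ordered by RefSeq (GRCh38.p14). The fit was tested on simulated data. Figures used matplotlib 3.10.9 in Python 3.11.15.

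Every member that passed was named with its clones' values, as were the 3 uncalled members of largest change for TIP-1 shRNA minus control (MMP16, SPINT2 and CST3) and pathway genes that passed; others were named after their values were seen. Members and lists were chosen with earlier results of these data known. Alternatives were each clone left out, brighter rows, a block by replicate number, all rows, a variance trend, quantile normalization, pooled or fewer groups, a random block, the dimmer row and a minimum change.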

Additional observations from a re-analysis of the deposited data

Results flagged for a closer look

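The hairpins gave different changes, by the limma test of shRNA 159 minus shRNA 162, for 10 members. The differences on the log2 scale were 0.51 for MMP14, -0.75 for ADAM9, 0.30 for ADAM10, 0.35 for ADAM12, 0.51 for TIMP2, 0.46 for TIMP3, 0.55 for PLAT, 0.37 for PLAUR, 0.54 for CTSD and 0.55 for CTSZ. TIMP3 fell with each hairpin and differed in size. ADAM9 passed against control in opposite directions, and CTSD and ADAM12 passed against control with neither hairpin.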

How the results depend on the processing

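The number of members that passed depends on the fit, as does the share of all rows, given in parentheses. For TIP-1 shRNA minus control the 6 members (4.62%) became 12 among the 24 rows brighter than the median (18.8%) and 12 with a variance trend (10.7%). They became 5 after quantile normalization (4.83%) and 2 with all rows tested, ADAMTS1 and TIMP3 (0.679%). They became 1 with the 4 shRNA clones as 1 group (0.335%) and 1 with the hairpin as a random block (0.127%). With a log2 change of at least 0.5 they became 2 (1.51%). For shRNA 162 minus control the 12 (9.52%) became 3 with all rows tested, ADAMTS1, TIMP3 and CTSZ (2.08%), and 6 at 0.5 or more (3.53%). They became 16 among the 24 brighter rows (29.1%) and 17 with a variance trend (16.4%). With shRNA 159 minus control the 6 (2.53%) became 1 with all rows tested, ADAMTS1 (0.333%), and 10 with a variance trend (5.36%). They became 3 with only the 4 arrays compared (1.78%) and 3 at 0.5 or more (1.66%). Between the hairpins the 10 (8.65%) became 3 with all rows tested, ADAM9, CTSD and CTSZ (1.78%), and 6 at 0.5 or more (3.46%). Among the 24 brighter rows they became 11 (23.3%), and with a variance trend 15 (14.2%). The causes were not tested. Fits without one clone leave 1 clone in a group, which is assumed to vary like the others, so their counts are not given. No called member changed sign in any of these fits.

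With the replicate number as a replicate block, 6, 11, 6 and 9 members passed, beside 4.77%, 10.0%, 2.75% and 9.35% of all rows. In these fits PLAUR (shRNA 162) and ADAM10 (between hairpins) lost the call. Deviations of same-numbered clones correlated at -0.0517, 0.263 and -0.028, so not every clone correlated best with its own number, and the numbers were not taken as pairing. Signals below the lower quartile of an array, as for 6 members, were not shown to be above background.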

Other observations

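Further genes near the members were read off after their values were seen. ABHD4, at position -4 in gene order from MMP14, changed by -0.80 with shRNA 162 (limma adjusted p = 0.0014) and -0.05 with shRNA 159. LRP10, adjacent to MMP14, changed by -0.75 and 0.02. DDHD2, at position -10 from ADAM9, changed by 1.15 with shRNA 162 (limma adjusted p = 0.00045) and by 0.29 with shRNA 159. Around MMP1, in the MMP cluster of chromosome 11, 0 of 20 neighbours passed by limma with either hairpin, with medians of 0.051 and -0.022. In this cluster MMP3, MMP7, MMP8, MMP10, MMP12, MMP13, MMP20 and MMP27 lay below the lower quartile on every array. That these did not pass therefore says little about the region.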
